A study of Mus musculus with 6 samples.

Results

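The genes described here are 10 well-known targets of the transcription factor NRF2: Slc7a11, Gclc, Gclm, Gsr, Txnrd1, Srxn1, Nqo1, Ephx1, Ugdh and Osgin1. They were taken by symbol from the count tables of a mouse liver RNA-seq study, in which they are 10 of 24982 genes. They were listed as known targets, but with earlier results of these data known. The study kept male mice of the strain C57BL/6NJ for 54 weeks on a Chow diet (3 liver samples) or on a High fat - high sugar diet, in which the sugar came in the drinking water (3 liver samples). All 6 samples share strain, sex and tissue, and no transgene or drug is named. The labels give no starting age and no batch, and leave unsaid whether any tumour was sampled. Nor do they state that every sample is a separate animal, so the p-values here speak only for the spread among these samples, which may be partly technical. The tables of the high fat high sugar diet alone are named as combined, and diet and any such difference in handling cannot be told apart.

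NRF2 (gene Nfe2l2) is the main activator of the cell's response to oxidants and electrophiles. In resting cells the sensor KEAP1 presents NRF2 to a CUL3 ubiquitin ligase, which marks it for destruction; oxidants and electrophiles modify KEAP1, and NRF2 then accumulates, pairs with a small MAF protein and binds antioxidant response elements near its targets. In hepatocytes these targets make and recycle glutathione, keep thioredoxin and peroxiredoxins reduced, and detoxify quinones, epoxides and bilirubin. NRF2 protein was not measured here, and RNA levels of its targets are what these data hold.

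The 10 genes did not shift together with the diet. Of the 9 that could be tested, 0 were called higher and 1, Ugdh, was called lower (edgeR quasi-likelihood test, Benjamini-Hochberg adjusted p under 0.05). Of the 12949 genes tested, 11.0% were called higher and 3.61% lower, or 14.6% in either direction. On simulated counts this test found 49% of 2-fold changes, so a gene without a call may still have changed. The simulation gave 158 calls and these data 1896, so the adjusted threshold fell at a different p and the 49% need not hold here. At an unadjusted p under 0.05 the members' counts were also 0 higher and 1 lower with edgeR, beside 19.5% and 12.8% of tested genes, and DESeq2 gave 1 higher at an unadjusted p. The diets did not overlap in 1 of the 9 tested genes, Ugdh (below chow), beside 39.5% of tested genes, 21.5% above and 18.0% below. The median log2 fold change of the 9 genes was 0.01, beside -0.02 over all tested genes. The tenth gene, Slc7a11, had 0 counts in every chow library and too few counts elsewhere to enter the test. What the genes shared was a high value in 1 library: 9 of the 10, all but Ugdh, were highest of the 6 libraries in high fat high sugar replicate 2, where 29.2% of tested genes had their highest value. All 10 were highest there among the 3 high fat high sugar libraries, compared with 39.2% of tested genes.

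Gene counts ranged from 16565335 to 20585366 per library, so 3 counts, taken as the floor of detection, correspond to 0.115 to 0.202 CPM (counts scaled to a common library size with TMM factors). High fat high sugar replicate 2 stood somewhat apart across all genes: its log2 CPM correlated with those of replicates 1 and 3 of its diet at 0.961 and 0.957, and replicates 1 and 3 correlated with each other at 0.982. Values without that library are given beside the results that rest on it. With library sizes alone, without TMM, the median log2 fold change of all genes moved by 0.27, so directions of the members are stated relative to TMM scaling; on that other scale Gclm (0.13), Ephx1 (0.13) and Gsr (0.07) turned positive.

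**Figure D1:**
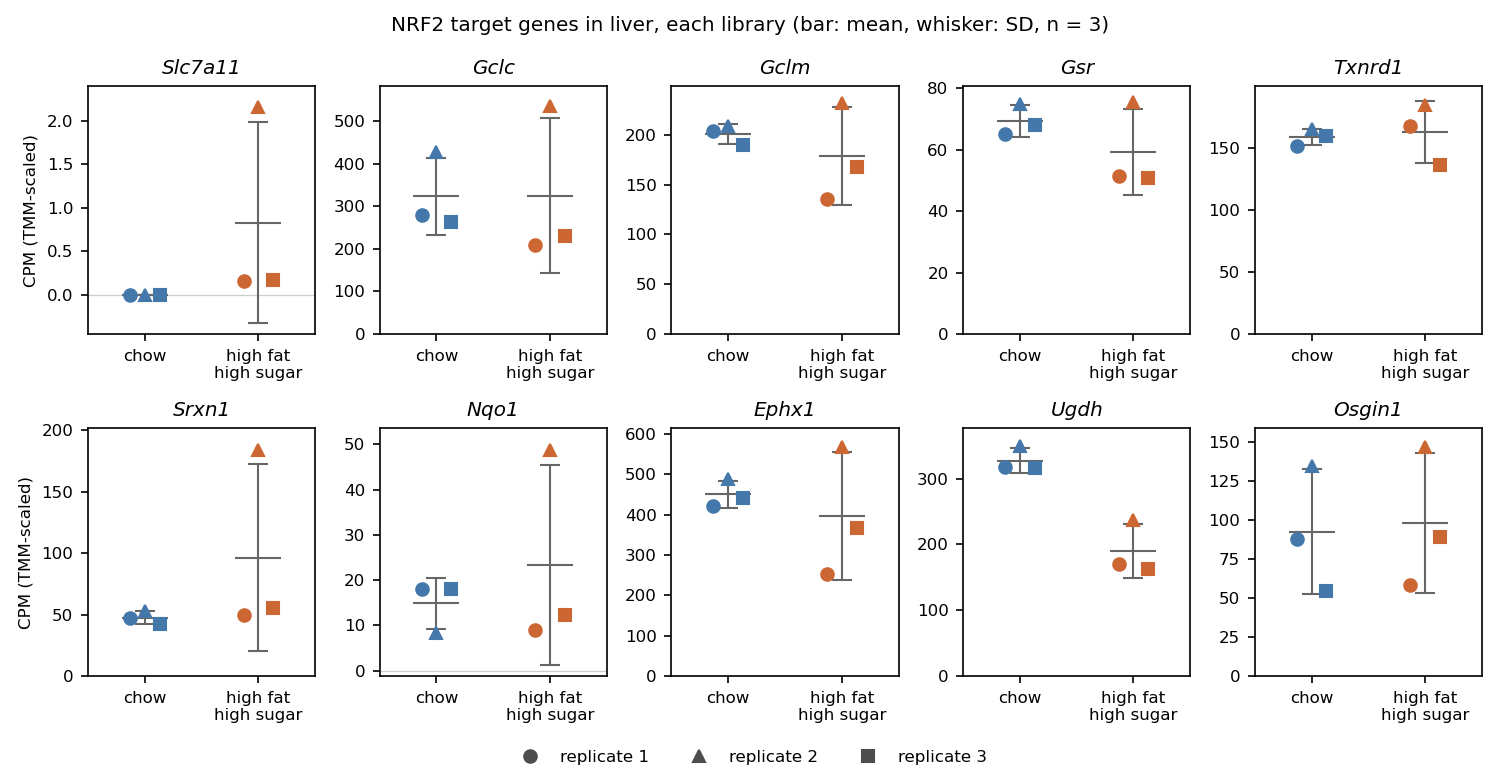
Level of each of the 10 NRF2 target genes in CPM, a linear scale that differs between panels, in the 3 chow (blue) and 3 high fat high sugar (orange) libraries; marker shape gives the replicate, the bar the mean and the whisker the SD. The orange triangle, high fat high sugar replicate 2, is the highest point in 9 panels, and Ugdh alone has all orange points below all blue points. The axes of Slc7a11 and Nqo1 extend below 0 to fit the whisker or the points at 0.

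The tested members of glutathione synthesis and recycling, Gclc, Gclm and Gsr, were not called different between the diets, and Slc7a11 was not tested. Slc7a11 (chr3:50364936-50499087, minus strand, GRCm38) encodes the cystine carrier xCT, which brings in the cysteine that limits glutathione synthesis. Chow replicates 1, 2 and 3 gave 0, 0 and 0 counts of it, and the corresponding libraries of the other diet gave 3, 56 and 3. The 56 counts correspond to 2.16 CPM, with an exact Poisson 95% interval of 1.63 to 2.80 CPM that covers counting error only. The 3 counts of the other libraries are at the floor, and their intervals (0.0320 to 0.453 and 0.0346 to 0.490 CPM) overlap the upper limits of chow (0.203 to 0.248 CPM). Set against a floor of 3 counts over the whole chow group, the pooled 62 counts of the high fat high sugar group were 16.7-fold higher. Of these, 56 came from replicate 2, and without it the ratio was 2.74-fold, from 6 counts. Both ratios leave out the counting error of the high fat high sugar counts, so neither is a firm lower limit for the diet. When the filter on low counts was dropped, edgeR gave an unadjusted p of 0.0427 and an adjusted p of 0.166 over 17877 genes. Its partner chain Slc3a2, which anchors several amino acid carriers in the membrane, stood at 41.4, 36.5 and 44.5 CPM in chow and 32.3, 58.3 and 33.5 CPM in high fat high sugar, with overlapping groups and a log2 fold change of 0.02 ± 0.23 (SE).

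Gclc (chr9:77754535-77794489, plus strand) encodes the catalytic subunit of glutamate-cysteine ligase, the rate-limiting enzyme of glutathione synthesis. It measured 279, 428 and 264 CPM in chow and 210, 535 and 230 CPM in high fat high sugar. The second replicate was high in both diets, and the high fat high sugar libraries lay on both sides of the chow range, 2 below it and 1 above, with a log2 fold change of 0.01 ± 0.39 (SE; edgeR adjusted p = 0.992). Gclm (chr3:122245487-122267215, plus strand), the modifier subunit that makes the ligase more efficient, measured 204, 209 and 190 CPM in chow and 136, 232 and 168 CPM in high fat high sugar. Its chow libraries lay close together, while 2 high fat high sugar libraries were below them and 1 above; the log2 fold change was -0.17 ± 0.20 (edgeR adjusted p = 0.596). The log2 ratio of Gclm to Gclc counts differed between the diets by -0.11 (exact permutation test, two-sided p = 0.6). In that ratio the second replicate was the lowest of its diet on both sides, at -1.03 in chow and -1.21 in high fat high sugar.

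Gsr (chr8:33653238-33698162, plus strand) encodes glutathione reductase, which regenerates glutathione from its oxidised form with NADPH. Its levels were 64.9, 74.8 and 68.1 CPM in chow and 51.4, 75.3 and 50.6 CPM in high fat high sugar. High fat high sugar replicates 1 and 3 were below every chow library, and replicate 2 matched the highest of them, so the log2 fold change of -0.23 ± 0.17 was not called (edgeR adjusted p = 0.397).

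In the thioredoxin and peroxiredoxin arm, the genes differed from each other in how far they departed from chow. Txnrd1 (chr10:82833951-82897724, plus strand), the cytosolic thioredoxin reductase, was the steadiest member, at 152, 165 and 160 CPM in chow and 168, 185 and 136 CPM in high fat high sugar. Its high fat high sugar libraries fell on both sides of the chow range, with a log2 fold change of 0.04 ± 0.15 (edgeR adjusted p = 0.89). Relative to Gsr, the other NADPH-dependent reductase, its log2 count ratio was 1.23, 1.14 and 1.23 in chow and 1.71, 1.30 and 1.43 in high fat high sugar. The ratio was higher in 3 of 3 high fat high sugar libraries, by 0.28 on average; the exact permutation p was 0.1, the smallest that 3 against 3 allows, and 0.167 after Benjamini-Hochberg adjustment over 5 ratios. Without high fat high sugar replicate 1 the difference was 0.16.

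Srxn1 (chr2:152105524-152111376, plus strand) encodes sulfiredoxin, which repairs hyperoxidised peroxiredoxins, and is a classical NRF2 target. Its promoter is shown because it holds 2 copies of the TGANTCA element bound by AP-1 factors, whose letters are also the first part of many antioxidant response elements; the window is the 250 bases upstream of the RefSeq start, chr2:152105274-152105523, plus strand, GRCm38.p6, with both copies in capitals.
Srxn1: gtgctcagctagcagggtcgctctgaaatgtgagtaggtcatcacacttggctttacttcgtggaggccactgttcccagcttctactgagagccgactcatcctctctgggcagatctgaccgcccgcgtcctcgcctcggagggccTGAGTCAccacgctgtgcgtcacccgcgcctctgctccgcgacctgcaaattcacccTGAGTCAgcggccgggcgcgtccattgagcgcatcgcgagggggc
The copies lie at -102 to -96 and at -45 to -39 from the start. Srxn1 measured 47.5, 52.7 and 42.2 CPM in chow and 49.8, 184 and 55.2 CPM in high fat high sugar. High fat high sugar replicates 1 and 3 lay within or just above the chow range, and replicate 2 was 3.88 times the chow mean. The group means were 47.4 ± 5.26 and 96.3 ± 75.9 CPM (SD, n = 3 each), and the log2 fold change of 1.02 ± 0.51, the largest of the 9 tested members, was not called (edgeR adjusted p = 0.224). Without replicate 2 it was 0.15 ± 0.13.

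Nqo1 (chr8:107388225-107403205, minus strand) encodes a quinone reductase and is a standard readout of NRF2 activity. It measured 18.1, 8.3 and 18.1 CPM in chow and 8.89, 48.7 and 12.2 CPM in high fat high sugar. The 2 high fat high sugar libraries other than replicate 2 lay inside the chow range, while replicate 2 was 3.28 times the chow mean and 4.62 times the mean of the other 2 libraries of its diet. That second ratio lies at percentile 99.7 of all tested genes; for Srxn1 it was 3.50 and percentile 99.1, and for the other 7 tested members it ran from 1.22 (Txnrd1, percentile 73.8) to 2.43 (Gclc, percentile 96.8). The log2 fold change of Nqo1 was 0.66 ± 0.69 (edgeR adjusted p = 0.555), with its sign set by replicate 2: without that library it was -0.48 ± 0.36. Osgin1 (chr8:119425882-119446257, plus strand), an oxidative stress-induced growth inhibitor, measured 88.2, 135 and 54.9 CPM in chow and 58.4, 147 and 89.2 CPM in high fat high sugar. It varied as widely within chow as within the other diet (coefficients of variation 43.3% and 45.7%), and the log2 fold change was 0.08 ± 0.42 (edgeR adjusted p = 0.913), or -0.32 ± 0.43 without high fat high sugar replicate 2.

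The enzymes of epoxide hydrolysis and glucuronidation held the single call among the members. Ephx1 (chr1:180989556-181017569, minus strand), the microsomal epoxide hydrolase, measured 422, 488 and 442 CPM in chow and 254, 569 and 367 CPM in high fat high sugar, so replicate 2 lay above and the other 2 below every chow library. Its log2 fold change was -0.18 ± 0.28 (edgeR adjusted p = 0.692). Ugdh (chr5:65413207-65435842, minus strand) encodes the UDP-glucose dehydrogenase that makes UDP-glucuronate, the sugar donor of all glucuronidation. It measured 317, 349 and 316 CPM in chow and 171, 237 and 162 CPM in high fat high sugar, so every high fat high sugar library was below every chow library; such a gap in this direction was seen in 18.0% of tested genes. Mean levels were 327 ± 18.6 and 190 ± 41.2 CPM (SD, n = 3 each), a fall to 0.581-fold, with a log2 fold change of -0.78 ± 0.18 and an edgeR adjusted p of 0.0299. The size varied little when single libraries were left out (-0.69 to -0.97), but the adjusted p then lay between 0.00439 and 0.10 and was under 0.05 only without high fat high sugar replicate 2. With library sizes alone the log2 fold change was -0.49 and the adjusted p 0.19, while DESeq2 gave an adjusted p of 0.000625.

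The Ugdh promoter is shown because it belongs to the called gene and holds 2 matches to the core of the antioxidant response element, TGACNNNGC, one on each strand (reverse GCNNNGTCA). The window is chr5:65435843-65436092 on the minus strand, 250 bases upstream of the RefSeq start in GRCm38.p6, with both matches in capitals.
Ugdh: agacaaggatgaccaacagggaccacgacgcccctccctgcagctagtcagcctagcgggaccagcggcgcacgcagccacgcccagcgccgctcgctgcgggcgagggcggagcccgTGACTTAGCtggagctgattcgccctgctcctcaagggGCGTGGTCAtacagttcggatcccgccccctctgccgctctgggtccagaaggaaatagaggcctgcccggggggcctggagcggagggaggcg
They lie at -132 to -124 and at -94 to -86. Promoter entries were used for 8 of the 10 members; 3 of these 8 (Gclm, Txnrd1 and Ugdh) hold TGACNNNGC on either strand and 2 (Srxn1 and Osgin1) hold TGANTCA, which reads the same on both strands. Over the same length, 11.5% of 27025 genes hold the former and 7.82% the latter; the motifs can overlap in a sequence that satisfies both. These matches are letters in a window and not measured binding. Srxn1 and Ugdh, whose log2 fold changes are the highest and the lowest of the tested members, hold different motifs: Srxn1 only TGANTCA and Ugdh only TGACNNNGC.

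Ugdh was also compared with Ephx1 within each library. The log2 ratio of Ugdh to Ephx1 counts was -0.41, -0.48 and -0.48 in chow and -0.57, -1.26 and -1.18 in high fat high sugar, lower in 3 of 3 libraries by 0.54 on average (exact permutation p = 0.1, adjusted p = 0.167 over the 5 ratios). The ratio of Osgin1 to Nqo1 differed by -0.24 with overlapping groups (exact permutation p = 0.8), and turned positive without chow replicate 2 (0.45) or without high fat high sugar replicate 2 (0.16).

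Without high fat high sugar replicate 2, 2 members, Gsr and Ugdh, were called lower. Of the 9 tested, 8 had a log2 fold change below 0, as did 51.1% of the 13008 genes tested, and the median was -0.43. Gsr (-0.43 ± 0.12, adjusted p = 0.0491) and Ugdh (-0.97 ± 0.13, adjusted p = 0.00439) were called lower by edgeR and 0 members were called higher, where 3.01% of genes were lower and 9.42% higher. Gclc, Gclm and Ephx1 had unadjusted edgeR p-values of 0.0457, 0.0187 and 0.0209 and adjusted values of 0.168, 0.0986 and 0.105, which did not pass. With Gsr and Ugdh that made 5 members lower and 0 higher at an unadjusted p under 0.05, beside 10.5% and 17.5% of genes. In these 5 genes both remaining high fat high sugar libraries lay below all 3 chow libraries, which 20.5% of genes did, and 24.9% of genes lay above; Slc7a11, not tested, had its 3 counts in each against 0 in chow. This fit rests on 2 libraries of 1 diet, and leaving replicate 2 out was a choice made for the value it had.

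**Figure D2:**
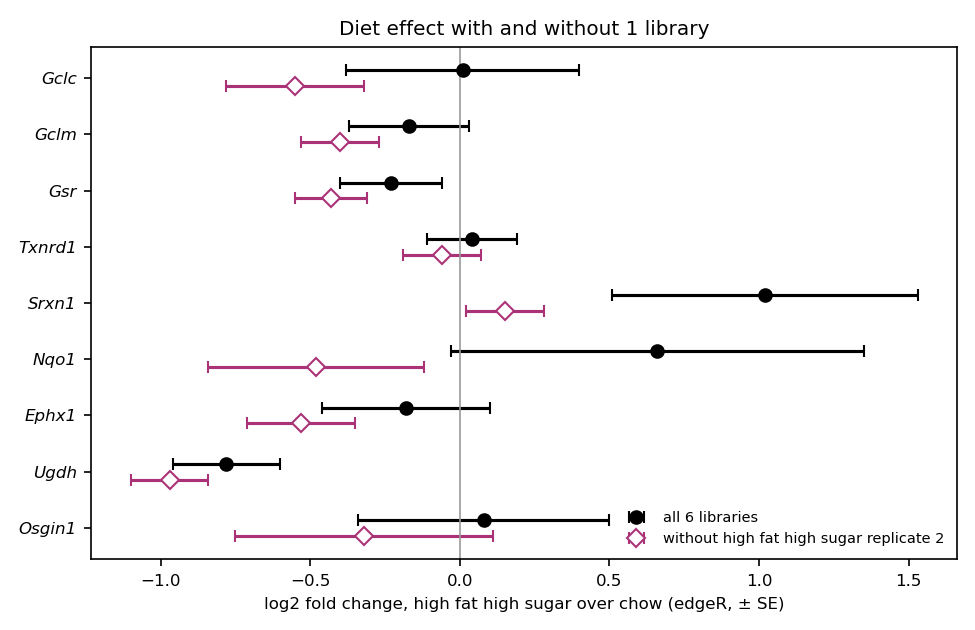
Log2 fold change, high fat high sugar over chow, of the 9 tested genes from all 6 libraries (filled circles) and without high fat high sugar replicate 2 (open diamonds), with the SE from edgeR. With all libraries the values run from -0.78 (Ugdh) to 1.02 (Srxn1), and without replicate 2 all but Srxn1 are below 0.

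The spread of each of the 9 tested genes was wider in the high fat high sugar group, though barely so for Osgin1 (43.3% and 45.7%). The share of all tested genes with a wider spread there was not calculated, and replicate 2 of that diet stood apart across all genes. The coefficient of variation was 4.25% to 7.43% in chow for Txnrd1, Gclm, Ugdh, Gsr and Ephx1, and 15.3% to 40.2% for the same 5 genes in high fat high sugar. It was 11.1% and 78.8% for Srxn1 and 38.1% and 95% for Nqo1. Relative to the chow mean, the members' median log2 level was -0.56 in high fat high sugar replicate 1, 0.55 in replicate 2 and -0.24 in replicate 3, whereas the median over all tested genes was within 0.02 of 0 in each. The chow libraries were at -0.02, 0.10 and -0.04. Of the chow libraries replicate 2 was the highest in 8 of the 9 tested members, and the lowest for Nqo1.

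Levels can be compared between genes only per length of transcript, here as CPM per kilobase of exon. In chow Ephx1 led with 231 ± 17.2, followed by Gclc (85.9 ± 24.1), Ugdh (48.5 ± 2.75), Osgin1 (34.6 ± 15.0), Gclm (32.0 ± 1.61), Gsr (25.1 ± 1.85), Txnrd1 (22.4 ± 0.954), Srxn1 (16.8 ± 1.87) and Nqo1 (9.55 ± 3.64; SD, n = 3). Neighbours in this order did not overlap in chow, except that Osgin1 overlapped both Ugdh and Gclm. In high fat high sugar Ephx1 (203 ± 81.7) and Gclc (86.3 ± 48.3) were still first but overlapped each other. Osgin1, Srxn1, Gclm, Ugdh, Txnrd1 and Gsr followed with means from 36.7 down to 21.5, each overlapping the next, Gsr included with Nqo1. Nqo1 came after them at 15.0 ± 14.2, and Slc7a11 was last in both diets.

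Of 12 regulators of NRF2, 0 were called higher and 1 (8.33%) was called lower, beside 11.0% and 3.61% of all tested genes. Their median log2 fold change was -0.05. Calls in this and the following lists lean on chow replicate 3: without it 4 genes of all tested were called higher and 2 lower, and of the pathway genes named below as called only Cyp2c55 was among them (edgeR adjusted p = 0.0416). Nfe2l2 measured 95.2, 110 and 80.2 CPM in chow and 120, 129 and 110 CPM in high fat high sugar. The groups met at 110 CPM and the log2 fold change of 0.33 ± 0.15 was not called (edgeR adjusted p = 0.167). Keap1, the sensor, was lower in 3 of 3 high fat high sugar libraries by -0.22 ± 0.11 on the log2 scale (edgeR adjusted p = 0.209). Cul3, the ligase scaffold, had -0.23 (adjusted p = 0.178). With library sizes alone these log2 fold changes were 0.04 and 0.03. Below chow in every library were 3 of 12 regulators (Keap1, Cul3 and Mafg) and above it 0, beside 18.0% and 21.5% of tested genes. Mafg, a small MAF partner, was the call, at -0.48 ± 0.12 (edgeR adjusted p = 0.0391). That call was lost under 10 of 14 alternative settings. Bach1 (-0.21 ± 0.13, edgeR adjusted p = 0.283) and Sqstm1 (-0.06 ± 0.16, adjusted p = 0.823) were not called. In high fat high sugar replicate 2 the regulators' median was -0.08 relative to chow, and 4 of 12 were highest there (33.3%, beside 29.2% of tested genes).

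Among 32 further NRF2 target genes, 31 could be tested, with 3 called higher (9.68%) and 2 called lower (6.45%), beside 11.0% and 3.61% of all tested genes. Their median log2 fold change was -0.10. The higher ones were G6pdx (1.71 ± 0.25, adjusted p = 0.0107), which supplies NADPH through the pentose phosphate pathway, Ptgr1 (1.15 ± 0.20, adjusted p = 0.0148), a reductase of prostaglandins and alkenals, and Akr1b8 (1.03 ± 0.23, adjusted p = 0.028), an aldo-keto reductase, all by edgeR. The lower ones were the glutathione transferase Gsta4 (-1.32 ± 0.28, adjusted p = 0.0244) and the aldehyde oxidase Aox1 (-0.69 ± 0.17, adjusted p = 0.0367). Hmox1, the haem oxygenase, measured 25.6, 20.3 and 18.0 CPM in chow and 28.6, 50.6 and 30.9 CPM in high fat high sugar, above chow in 3 of 3 libraries without passing the test (0.78 ± 0.24, edgeR adjusted p = 0.0694). In this list 13 of 32 were highest of all libraries in high fat high sugar replicate 2 and 21 of 32 highest there within their diet, beside 29.2% and 39.2% of tested genes.

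A few of these targets were far higher in replicate 2 than anywhere else, and are named here after their values were seen. Cbr3, a carbonyl reductase, measured 0.946, 0.495 and 0.875 CPM in chow and 2.53, 54.3 and 1.90 CPM in high fat high sugar. Abcc4, an efflux carrier, measured 5.51, 3.24 and 8.42 CPM in chow and 3.62, 45.7 and 3.85 CPM in high fat high sugar. Gstm3 was 5.91 times and Gsta1 27.2 times the mean of the other 2 libraries of the diet in replicate 2, both with close copies among which reads may have been split. None of these 4 passed the test with all libraries (edgeR adjusted p = 0.0972 for Cbr3). Cbr3 was above chow in all 3 libraries, and without replicate 2 it was called higher (1.53 ± 0.36, edgeR adjusted p = 0.0312), whereas Abcc4 (-0.60 ± 0.38), Gsta1 (-1.06 ± 0.39) and Gstm3 (-0.08 ± 0.22) were then below 0 and not called. Gsta2 had another order: in replicate 2 it was 53.5 CPM, below every chow library (73.7 to 108 CPM) and above replicates 1 and 3 (8.78 and 7.93 CPM); without replicate 2 it was called lower (-3.34 ± 0.22, edgeR adjusted p = 0.00157).

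**Figure D3:**
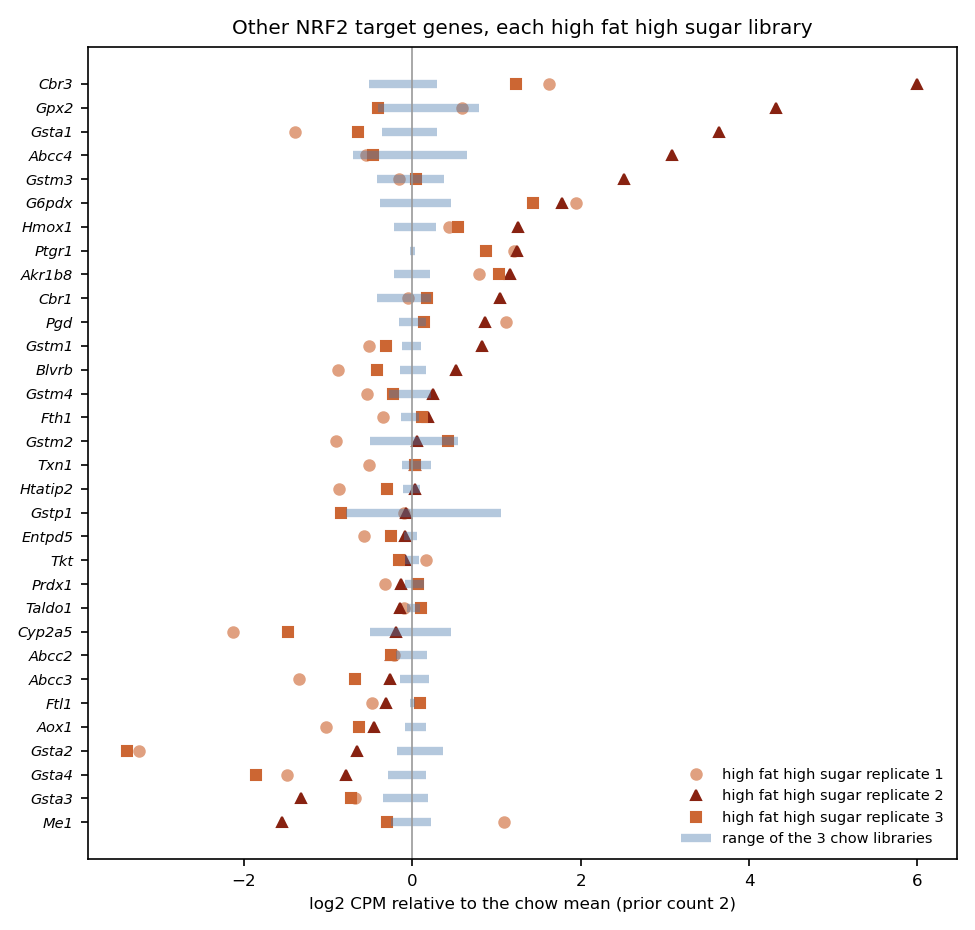
Log2 CPM relative to the chow mean of 32 further NRF2 target genes in each high fat high sugar library (circle, triangle and square for replicates 1, 2 and 3), with the range of the 3 chow libraries as a blue bar. Replicate 2 is far to the right for Cbr3, Gpx2, Gsta1, Abcc4 and Gstm3, whereas all 3 libraries are right of the chow bar for 5 genes (G6pdx, Ptgr1, Akr1b8, Hmox1 and Cbr3; 21.5% of tested genes) and left of it for 6 (Gsta2, Gsta3, Gsta4, Abcc2, Abcc3 and Aox1; 18.0%).

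Neighbouring pathways were described in the same way, beside 11.0% of all tested genes called higher and 3.61% lower. The shares called higher and lower were 11.5% and 7.69% for glutathione, thioredoxin and peroxide enzymes and 0% and 21.4% for glucuronidation and epoxide partners. They were 10% and 20% for the AhR and CAR pathway and 18.2% each for the ATF4 list, all from few genes. Of 26 tested enzymes of glutathione, thioredoxin and peroxide metabolism, 3 were higher and 2 lower, with a median of -0.26: extracellular Gpx3 (2.83 ± 0.31, adjusted p = 0.00775) and Sod3 (1.14 ± 0.19, adjusted p = 0.0132) and the endoplasmic reticulum peroxidase Gpx8 (1.88 ± 0.42, adjusted p = 0.0261) were called higher by edgeR, and mitochondrial Sod2 (-0.56 ± 0.14, adjusted p = 0.0358) and Txnrd3 (-0.79 ± 0.20, adjusted p = 0.0403) lower. Gss (0.40 ± 0.20, edgeR adjusted p = 0.21) and Txnip (0.86 ± 0.27, adjusted p = 0.074) were not called. Above chow in every library were 5 tested genes of this list, Gss and Txnip among them, and below it 12, beside 21.5% and 18.0% of all tested genes. Of 14 tested partners of Ugdh and Ephx1 in glucuronidation and epoxide metabolism, 0 were called higher and 3, all UDP-glucuronosyltransferases, lower, with a median of -0.61. These were Ugt1a6a (-0.63 ± 0.12, edgeR adjusted p = 0.0165), Ugt2b36 (-0.67 ± 0.16, adjusted p = 0.0314) and Ugt2b5 (-0.77 ± 0.20, adjusted p = 0.0444), and reads of these families can be split between near copies or shared exons. In the AhR and CAR pathway, which shares several targets with NRF2, 1 of 10 was higher (Cyp1b1, 2.60 ± 0.39, adjusted p = 0.0115) and 2 were lower, Cyp2b10 (-4.43 ± 0.60, adjusted p = 0.0101) and Cyp2c55 (-3.34 ± 0.23, adjusted p = 0.00517), by edgeR. Ahr (-0.56 ± 0.20, edgeR adjusted p = 0.0952) and the CAR gene Nr1i3 (-0.92 ± 0.30, adjusted p = 0.0799) were not called. Below chow in every library were 5 tested genes of this list, Ahr and Nr1i3 among them, and above it 1, beside 18.0% and 21.5% of all tested genes. In the ATF4 amino acid response, which also drives Slc7a11, 2 of 11 were higher and 2 lower. Atf3 (3.06 ± 0.65, adjusted p = 0.0266) and Psat1 (3.45 ± 0.85, adjusted p = 0.038) were the higher ones and Asns (-1.95 ± 0.40, adjusted p = 0.0211) and Cth (-1.87 ± 0.25, adjusted p = 0.0101) the lower ones by edgeR. Atf4 itself was not called (-0.11 ± 0.10, edgeR adjusted p = 0.52). In replicate 2 the ATF4 list had a median of 0.85 relative to chow, with 9 of 12 genes highest there, beside 29.2% of tested genes. Most marker lists of other cells had higher medians there: 2.51 for macrophages (7 of 8 genes highest there), 1.88 for stellate cells (6 of 7), 2.75 for cholangiocytes (6 of 6), 3.36 for neutrophils (5 of 5) and 1.84 for lymphocytes (8 of 8). The endothelial list was at 0.70 (2 of 6), below replicates 1 and 3 of its diet (0.88 and 1.01). The hepatocyte list was at -1.48. The part of these cell types in the members' values in this library was not tested.

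**Figure D4:**
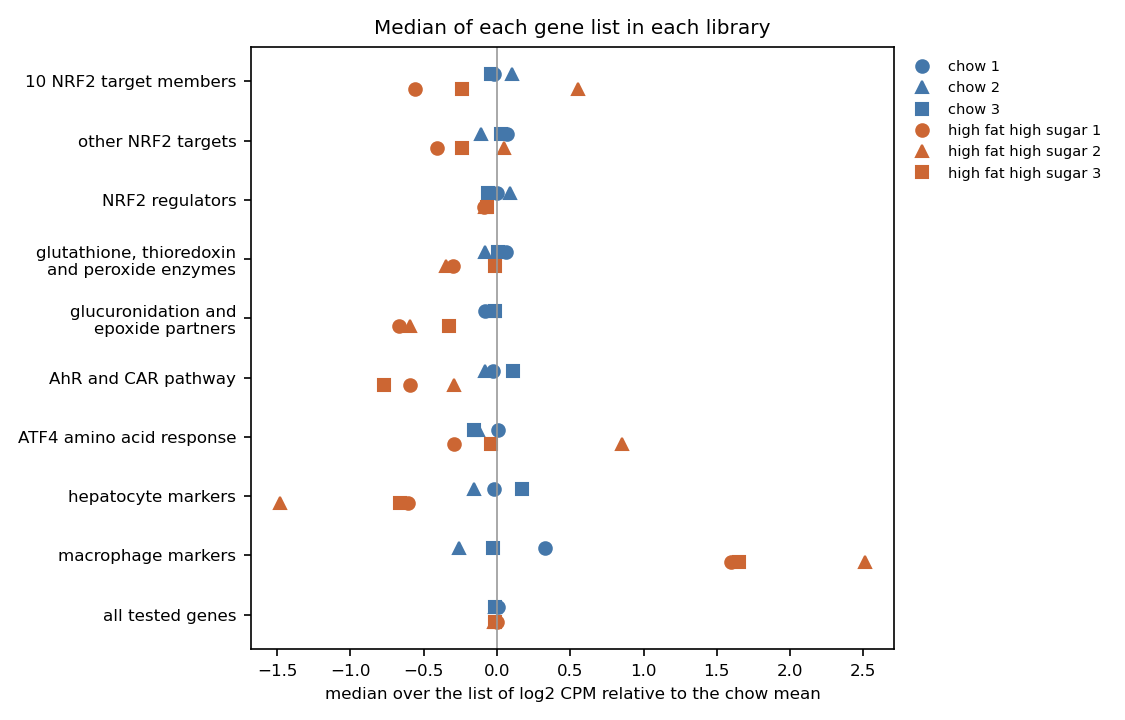
Median over each gene list of the log2 CPM relative to the chow mean, for each of the 6 libraries. The NRF2 members (high fat high sugar replicates 1, 2 and 3 at -0.56, 0.55 and -0.24) and the ATF4 list (-0.29, 0.85 and -0.04) have replicate 2 to the right of the other libraries, and the regulators, the glutathione enzymes, the glucuronidation partners and the AhR and CAR list have all 3 high fat high sugar libraries to the left of 0.

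Most markers of 4 non-hepatocyte cell types were called higher on the high fat high sugar diet, beside 11.0% of all tested genes. Liver is mostly hepatocytes, and in bulk RNA fewer cells of a type and less RNA per cell cannot be told apart. The summed level of 8 hepatocyte markers was 96100 to 121000 CPM in chow and 91800, 38700 and 73200 CPM in high fat high sugar replicates 1, 2 and 3. Of these markers 0 of 8 were called, beside 3.61% of tested genes called lower. Below chow in every library were 4 of 8, a gap seen in 18.0% of tested genes. Ass1, abundant in hepatocytes, was at 0.115 to 1.95 CPM in all 6 libraries. All 8 macrophage markers and all 7 stellate cell markers were called higher, with sums of 258 to 359 CPM in chow against 922, 1570 and 827 CPM for macrophages, and 182 to 232 CPM against 491, 750 and 470 CPM for stellate cells. For endothelial cells 5 of 6 were called higher (143 to 178 CPM against 275, 250 and 296 CPM) and for cholangiocytes 5 of 6 (4.84 to 9.73 CPM against 17.0, 27.8 and 11.5 CPM). Neutrophil markers summed to 2.29 to 7.95 CPM in chow against 11.4, 38.7 and 10.6 CPM with 0 of 3 tested called, and lymphocyte markers to 3.02 to 5.34 CPM against 6.15, 13.5 and 7.21 CPM with 1 of 6 tested called higher. No marker of these lists was at 0 in all 6 libraries. Their part in the levels of the NRF2 targets was not tested.

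Genes with profiles over the 6 libraries like those of the members were sought among 10516 candidates with a mean count of at least 50. The members and the genes of the lists above were not candidates. Whether listed NRF2 or ATF4 genes lay nearer than the genes named next was therefore not tested. Nearest to the members' median profile were Tspan17, Asap3, Ocln, Rps20 and Ankrd39, at root mean square distances of 0.064 to 0.150 (log2 scale). Among the same candidates Mgst3 (0.226), Ptgis (0.343) and Cxcl1 (0.350) were nearest to Nqo1. Among the members themselves Gclm and Gsr had the closest profiles (0.12), Ephx1 was nearest to Gclm (0.13), and Nqo1 was nearest to Srxn1 at the larger distance of 0.57.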

How the data were processed

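Frozen liver gave polyA RNA and dUTP-based stranded libraries, per the labels' protocols. Reads were aligned with STAR (no version named) to mm10, per the submitters' processing notes; the counting program, annotation and strand setting: not given in the sources used here. Whole-number counts per gene symbol were deposited by the authors, not normalised, in 1 table per library. Rows for reads outside genes (7.74% to 10.6% of counts) and for reads fitting several genes (0.615% to 0.862%) were left out.

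Groups are the diet labels and replicate numbers those of the titles. Counts of each pair within a diet differed by more than sampling noise (chi-square per gene at least 23.8), so none was treated as a duplicate. Low genes were removed by filterByExpr at a minimum count of 10, scaled by TMM and tested with edgeR's robust quasi-likelihood F test (edgeR 4.0.16, limma 3.58.1, R 4.3.3), with Benjamini-Hochberg adjustment over 12949 genes at 0.05. The SE is the log2 fold change over the square root of F. CPM was calculated here from these counts on TMM-scaled sizes. Ratios between members used log2 counts with 0.5 added and an exact permutation test. Alternatives were DESeq2 1.42.0, limma-voom, other scalings and filters, a replicate block and leaving out each library. The edgeR fit was tested on simulated counts for 3 against 3 libraries. It found 49% of 2-fold and 91% of 4-fold changes, and 18 of its 158 calls were false.

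The members and the lists of regulators, further targets, neighbouring pathways and cell markers were chosen with earlier results of these data known. All members are named; in each list the called genes, and central genes of the pathway, are named. Spans and promoters are RefSeq's (GRCm38.p6, which mm10 denotes); exon lengths are from GENCODE for the same build, where members shared no exon bases with other genes of the tables.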

Additional observations from a re-analysis of the deposited data

How the results depend on the processing

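Calls in this set of 6 libraries depended on single libraries. When each library was left out in turn, 4 to 1664 genes were called higher (1428 with all) and 2 to 772 lower (468 with all); the lowest pair was without chow replicate 3. Leaving out libraries, members called lower ranged from 0 to 2, their median from -0.43 to 0.14, and 2 to 6 of all 10, Slc7a11 included, had diets that did not overlap (2 with all libraries). With all libraries 39.5% of tested genes did not overlap. The 6 came without high fat high sugar replicate 2, where 20.5% of tested genes lay below chow and 24.9% above. Members called higher stayed at 0 under every alternative run. Ranges for the lists, higher then lower, were 0 and 0 to 1 for regulators, 0 to 4 and 0 to 6 for further targets, 0 to 3 and 0 to 7 for glutathione, thioredoxin and peroxide enzymes, 0 and 0 to 5 for glucuronidation partners, 0 to 1 and 1 to 3 for AhR and CAR, and 0 to 2 and 0 to 2 for ATF4. The Gclm to Gclc ratio turned to 0.11 without high fat high sugar replicate 2 (range -0.30 to 0.11) and Osgin1 to Nqo1 to 0.45 and 0.16 without replicate 2 of chow or of the other diet (range -0.76 to 0.45). Txnrd1 to Gsr ranged from 0.16 to 0.37 and Ugdh to Ephx1 from -0.76 to -0.41. The Slc7a11 to Slc3a2 log2 count ratio, 3.88 with 0.5 added to counts and 2.24 with 2 added, is set by that constant because chow has 0 counts, and ranged from 2.98 to 4.35. With library sizes only, 200 genes were lower and no member, regulator, further target, glutathione enzyme or glucuronidation partner was (0 each); the members' median was 0.32 beside 0.25 for all genes, Gclm (0.13), Ephx1 (0.13) and Gsr (0.07) turned positive, and rises made up 90.6% of calls instead of 75.3%. Upper-quartile scaling gave 83.5% rises, 0 regulators and 1 further target lower. DESeq2 called 974 genes lower, with rises at 65.0% of calls, and 5 further targets higher, 7 glutathione enzymes, 5 glucuronidation partners and 4 AhR and CAR genes lower. Limma-voom called 0 regulators lower, and 0 ATF4 genes higher and 1 lower; Gclc was at -0.12 there. The stricter filter left 0 regulators, 1 further target and 1 glutathione enzyme lower and 1 ATF4 gene higher. Same-numbered samples were not paired in the main fit. Their deviations from the diet means correlated at -0.25, -0.17 and 0.03, and no chow sample correlated best with its own number. With 3 samples per diet these values cannot settle whether the numbers mark pairs. With a replicate block 961 genes were higher and 282 lower, with Ugdh at -0.80 (edgeR adjusted p = 0.0416), 0 regulators, 1 further target, 0 glutathione enzymes and 1 glucuronidation partner lower and 1 ATF4 gene higher. Where a call changed, the cause was not tested. Fits that left out a library also had fewer samples, and the part of that was not tested either. Over single genes and settings, 550 values kept direction and side of the threshold, 89 lost the call, 6 gained it and 51 changed sign, all of them not called in either fit. With library sizes only the sign changes were those above and Cul3 (0.03), Keap1 (0.04), Bach1 (0.06), Sqstm1 (0.22), Atf4 (0.16), Tspan17 (0.28), Asap3 (0.25), Ocln (0.25), Rps20 (0.28) and Ankrd39 (0.18), and with upper-quartile scaling Sqstm1, Asap3 and Ocln (0.03 each) and Tspan17 and Rps20 (0.07 each). Gclc was at -0.02 with no filter and -0.09 with the replicate block, Slc3a2 at 0.00 with no filter and -0.03 with limma-voom and with the block, and Rps20 at 0.02 with the stricter filter. With single libraries left out, ranges that crossed 0 were -0.48 to 1.04 for Nqo1, -0.55 to 0.25 for Gclc, -0.06 to 0.14 for Txnrd1, -0.32 to 0.44 for Osgin1, -0.53 to 0.05 for Ephx1, -0.30 to 0.17 for Slc3a2, -0.36 to 0.17 for Tspan17, -0.42 to 0.11 for Asap3, -0.48 to 0.10 for Ocln, -0.27 to 0.11 for Rps20, -0.49 to 0.05 for Ankrd39, -0.30 to 0.74 for Mgst3, -0.05 to 0.80 for Ptgis and -0.74 to 0.75 for Cxcl1.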
